A study of Mus musculus with 10 samples.

Results

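The 9 genes followed here mark hepatic stellate cells and the myofibroblasts that arise from them, and they were read in RNA of freshly isolated mouse hepatocytes: Lrat, Reln, Ecm1, Dcn, Pdgfrb, Des, Rgs5, Acta2, and Lum. They were chosen by name, and each symbol matched 1 Ensembl gene, which gives 9 of the 21939 genes in the table. The mice were males of 8 to 9 weeks on the C57BL/6J background. All were injected with AAV8Cre, a viral vector in which Cre recombinase is driven by the hepatocyte-specific thyroxine-binding globulin promoter, and all were killed 12 days later. Control mice (n = 3) were wild type C57BL6/j and carried no floxed allele. Nrf2 KO mice (n = 2) carried Nrf2 flox/flox, p65 KO mice (n = 2) carried p65 flox/flox, and DKO mice (n = 3) carried both. Nrf2 (gene Nfe2l2) is the main transcription factor of the oxidative stress response, and p65 (gene Rela) is a subunit of NF-κB. Cells other than hepatocytes do not use this promoter and keep both genes. Hepatocytes were enriched by perfusion, low-speed centrifugation, and a Percoll step, without sorting.

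Stellate cells lie between the hepatocytes and the sinusoidal endothelium. In the healthy liver they are quiescent and store vitamin A as retinyl esters. After injury they can become activated, lose their vitamin A, and turn into contractile myofibroblasts that secrete fibrillar collagen, the main source of scar tissue in fibrosis. Lrat, Reln, and Ecm1 were taken as genes of quiescent cells, Acta2 and Lum as genes of activated cells, and Dcn, Pdgfrb, Des, and Rgs5 as mesenchymal genes that are found in both states.

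Stellate cell genes were low in these hepatocyte preparations and were highest in the p65 KO libraries. Together the 9 genes took 6.92 to 12.7 counts per 1000000 in the control libraries, 5.39 and 11.3 in Nrf2 KO, 71.9 and 76.5 in p65 KO, and 11.1 to 31.7 in DKO. Of the 8 genes with enough counts to test, 7 rose in p65 KO compared with control (5.05% of all genes tested did), and 1 of them, Dcn, also rose in DKO (1.36% did). Leaving out 1 library at a time gave between 4 and 7 members in p65 KO and between 0 and 3 in DKO. In the same p65 KO libraries all 12 marker genes of Kupffer cells and all 12 of sinusoidal endothelial cells were called higher too. Acta2, the classic myofibroblast gene, was at or near 0 throughout, with 7 counts in all 10 libraries. A gene was called when edgeR's quasi-likelihood test gave a Benjamini-Hochberg adjusted p of at most 0.05 over 13641 genes and its log2 fold change was 1 or more in size. In bulk RNA, more stellate cells in the preparation and more RNA of these genes per cell cannot be told apart.

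Total counts per library lay between 33707165 and 49897382. Values below are normalized counts, which are counts divided by the library's TMM-scaled size relative to the mean library, and errors are SD between mice. The 10 hepatocyte marker genes, among them Alb and Apoa1, summed to between 3756660 and 5876126 normalized counts in every library, so the labelled cell type was the dominant one. Nfe2l2 RNA did not fall in the libraries labelled Nrf2 KO, where it was 4738 and 5005 normalized counts against 1990 to 2318 in control, and it was 3433 to 5239 in DKO. Rela RNA was 1182 and 1209 in p65 KO, 1034 to 1488 in DKO, and 1221 to 1276 in control. Gene-level counts do not separate the floxed exons from the rest of the transcript, so the genotypes below are those of the labels and were not checked by these counts.

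**Figure D1:**
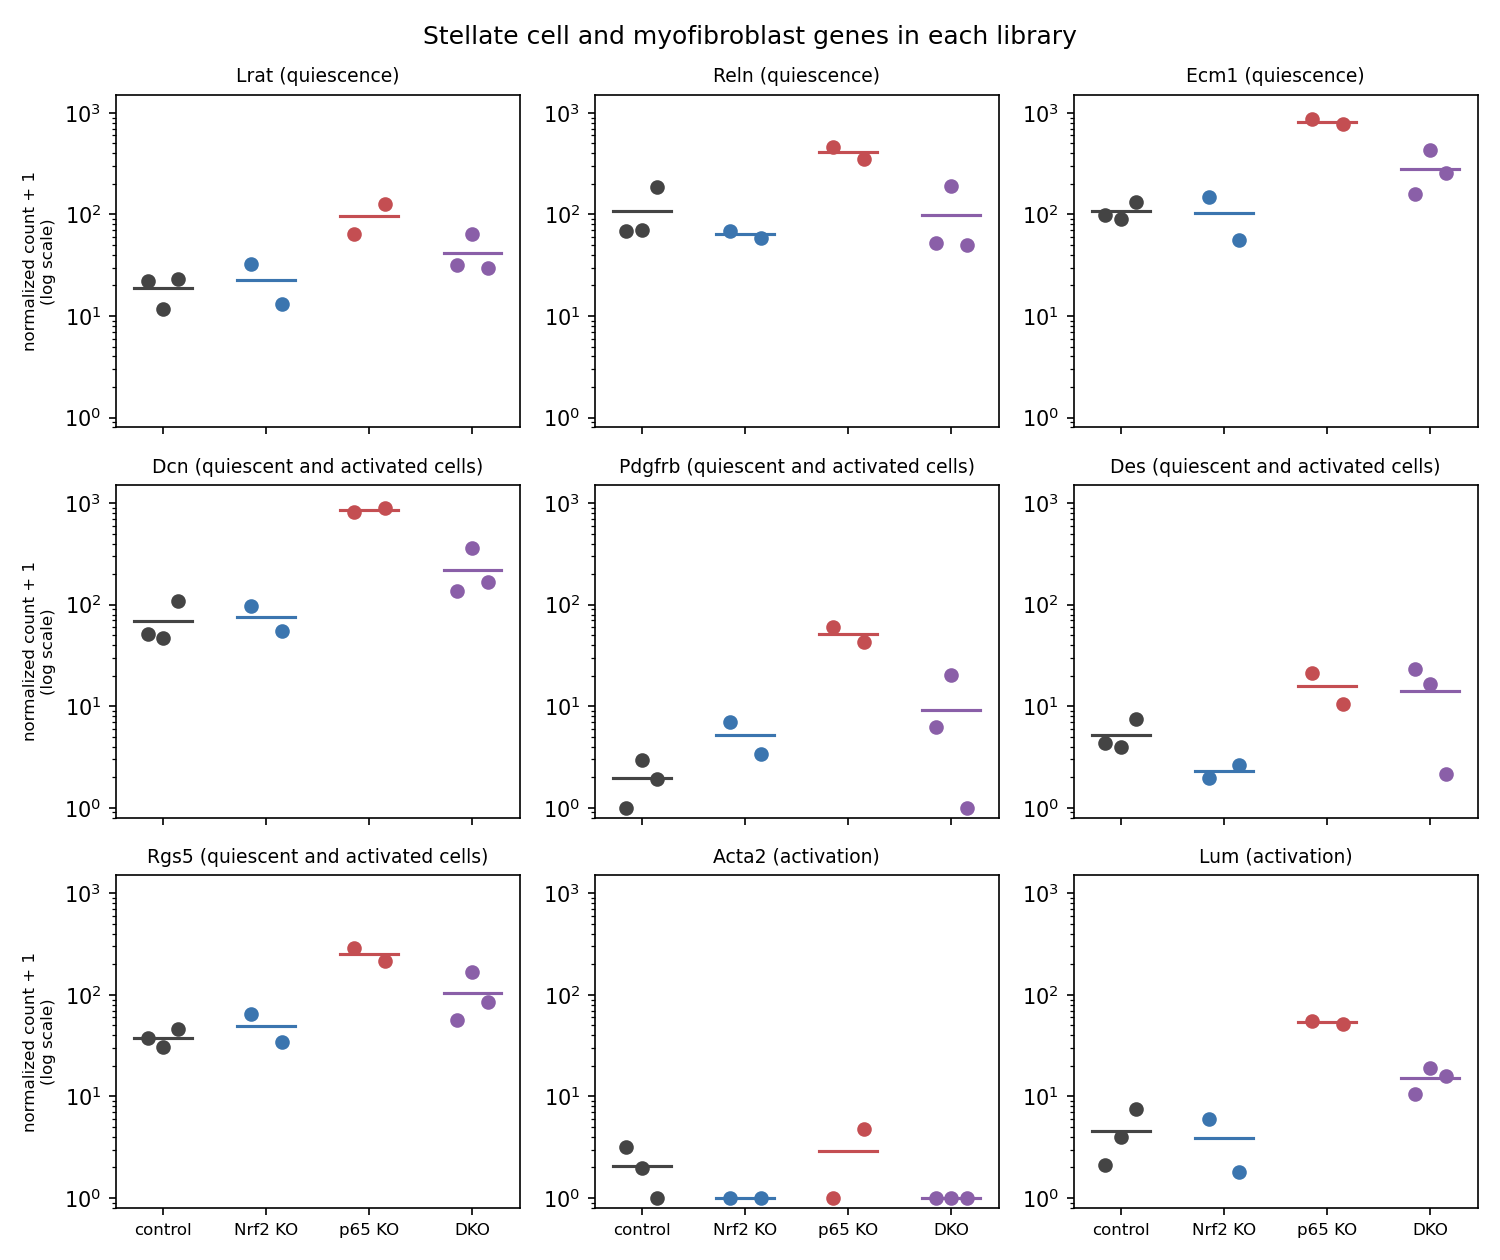
Normalized counts of the 9 genes in each library, with 1 added and on a log axis. Points are mice and lines are means of control (n = 3), Nrf2 KO (n = 2), p65 KO (n = 2), and DKO (n = 3). Both p65 KO libraries lie above all control libraries for every gene except Acta2, which is at 0 in 7 of 10 libraries.

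The quiescence genes rose in p65 KO, all 3 of 3. Ecm1 encodes a secreted extracellular matrix protein that stellate cells and hepatocytes can make (chromosome 3, 95640761 to 95646943 on GRCm39, minus strand). It was at 98.3, 89.5, and 131 normalized counts in control, 148 and 55.0 in Nrf2 KO, 865 and 771 in p65 KO, and 157, 426, and 256 in DKO. Every p65 KO library was above every DKO library, and every DKO library was above every control library. The log2 fold change in p65 KO compared with control was 2.94 (SE 0.417, edgeR adjusted p = 0.00238). In DKO compared with control it was 1.39 (SE 0.387, edgeR adjusted p = 0.063), which did not pass. Without DKO 1 the DKO difference passed, with a log2 fold change of 1.69 (edgeR adjusted p = 0.038), and it also passed without Nrf2 KO 1 (0.0397) or Nrf2 KO 2 (0.0391).

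Lrat encodes the acyltransferase that esterifies retinol for storage, and it is the defining gene of the vitamin A-storing stellate cell (chromosome 3, 82799886 to 82811288, minus strand). Its normalized counts were 21.0, 10.8, and 22.4 in control, 31.6 and 12.1 in Nrf2 KO, 63.0 and 127 in p65 KO, and 30.5, 62.8, and 28.6 in DKO. Control and DKO did not overlap, and the p65 KO libraries lay above both, with the lower of them at 63.0 just above the highest DKO library. The log2 fold change in p65 KO was 2.39 (SE 0.548, edgeR adjusted p = 0.0183) and that in DKO was 1.16 (SE 0.515, edgeR adjusted p = 0.212). The call in p65 KO was lost without control 1 (edgeR adjusted p = 0.0523), control 2 (0.0538), or p65 KO 2 (0.12), with a log2 fold change of 2.50, 2.12, or 1.80.

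Reln encodes reelin, a large secreted glycoprotein that in liver is made by stellate cells (chromosome 5, 22089452 to 22549700, minus strand). It was at 67.4, 68.8, and 185 normalized counts in control, 68.2 and 58.2 in Nrf2 KO, 464 and 353 in p65 KO, and 51.5, 190, and 49.2 in DKO. Control and DKO overlapped fully, each with 1 library near 190 and the others between 49.2 and 68.8. The log2 fold change was 1.92 in p65 KO (SE 0.559, edgeR adjusted p = 0.0424) and -0.15 in DKO (SE 0.529, edgeR adjusted p = 0.891). Among the called genes Reln was the least stable. Its call in p65 KO was lost without control 1 (edgeR adjusted p = 0.131), control 2 (0.113), p65 KO 1 (0.211), p65 KO 2 (0.0877), Nrf2 KO 1 (0.0578), or Nrf2 KO 2 (0.0578), at log2 fold changes between 1.68 and 2.11. In DKO its direction turned to 0.51 without control 3, to 0.16 without DKO 1, and to 0.17 without DKO 3.

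Of the 4 mesenchymal genes found in both states, 3 rose in p65 KO. Dcn encodes decorin, a small leucine-rich proteoglycan that binds collagen fibrils (chromosome 10, 97315275 to 97358155, plus strand). Its normalized counts were 50.8, 46.2, and 107 in control, 95.9 and 54.2 in Nrf2 KO, 808 and 890 in p65 KO, and 136, 358, and 168 in DKO. The 3 levels stood apart without overlap, with means of 68.1 ± 34.1 in control, 221 ± 120 in DKO, and 849 ± 58.5 in p65 KO. In p65 KO Dcn was 12.4-fold higher than in control, a log2 fold change of 3.63 (SE 0.442, edgeR adjusted p = 0.00142). It was the only member called in DKO, with a log2 fold change of 1.68 (SE 0.411, edgeR adjusted p = 0.0394). That call in DKO was lost without control 1 (edgeR adjusted p = 0.145), control 2 (0.125), DKO 2 (0.1), p65 KO 1 (0.0599), or p65 KO 2 (0.0608), at log2 fold changes between 1.15 and 1.69.

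Rgs5 encodes a regulator of G protein signalling that is typical of pericytes and stellate cells (chromosome 1, 169483036 to 169524887, plus strand). It was at 36.4, 29.5, and 44.8 normalized counts in control, 63.3 and 33.1 in Nrf2 KO, 286 and 217 in p65 KO, and 55.8, 168, and 83.5 in DKO. The order of control, DKO, and p65 KO held without overlap, as for Dcn. Its log2 fold change was 2.76 in p65 KO (SE 0.438, edgeR adjusted p = 0.00391) and 1.47 in DKO (SE 0.41, edgeR adjusted p = 0.0638). Without DKO 1 the difference in DKO passed, at a log2 fold change of 1.77 (edgeR adjusted p = 0.0382).

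Pdgfrb encodes the receptor through which platelet-derived growth factor drives stellate cell proliferation and migration (chromosome 18, 61178212 to 61218133, plus strand). Counts were few. The normalized values were 0, 1.97, and 0.934 in control, 5.93 and 2.42 in Nrf2 KO, 59.9 and 41.6 in p65 KO, and 5.26, 19.1, and 0 in DKO. The p65 KO libraries lay far above the others, whereas DKO ran from 0 to 19.1 and overlapped control. With 103 counts in p65 KO against 3 in control, the ratio of normalized counts was 50.3 (95% exact interval 16.7 to 248, counting error only), and the difference passed the test (edgeR adjusted p = 0.0156). The call was lost without control 1 (edgeR adjusted p = 0.0558) or p65 KO 1 (0.0865). In DKO the ratio was 8.08 (2.43 to 42.2), which did not pass (edgeR adjusted p = 0.196).

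Des encodes desmin, the intermediate filament protein of muscle and of stellate cells (chromosome 1, 75320511 to 75345223, plus strand). It was at 3.31, 2.95, and 6.54 normalized counts in control, 0.989 and 1.62 in Nrf2 KO, 20.3 and 9.45 in p65 KO, and 22.1, 15.7, and 1.14 in DKO. Both p65 KO libraries were above control, and in DKO 2 libraries were above control and 1 was below. It was the only tested member that was not called in p65 KO, with a log2 fold change of 1.76 (SE 0.932, edgeR adjusted p = 0.222), and that in DKO was 1.57 (SE 0.869, edgeR adjusted p = 0.31).

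The activation genes differed from each other. Lum encodes lumican, a collagen-binding proteoglycan related to decorin whose gene neighbours Dcn on chromosome 10 (97400990 to 97408577, plus strand). Its normalized counts were 1.1, 2.95, and 6.54 in control, 4.94 and 0.808 in Nrf2 KO, 54.9 and 51.0 in p65 KO, and 9.47, 18, and 14.9 in DKO. Control, DKO, and p65 KO did not overlap. With 108 counts in p65 KO against 11 in control, the ratio of normalized counts was 14.4 (95% exact interval 7.73 to 29.7, counting error only), and the edgeR log2 fold change was 3.83 (SE 0.728, adjusted p = 0.00846). Without p65 KO 1 the edgeR adjusted p was 0.0551, at a log2 fold change of 3.78. In DKO the log2 fold change was 1.93 (SE 0.702, edgeR adjusted p = 0.138).

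Acta2 encodes smooth muscle α-actin, the contractile protein by which myofibroblasts are usually recognised (chromosome 19, 34217737 to 34232990, minus strand). It had 2, 1, and 0 counts in control, 0 and 4 in p65 KO, and 0 in all 5 Nrf2 KO and DKO libraries. With 7 counts in all, it stayed under the minimum of 10 and was not tested. A count of 0 allows up to 3 counts, which is 2.42 to 3.43 normalized counts depending on the library, so a level below that was not detectable at this depth. Whether reads shared with the abundant actin genes were assigned to those was not tested. Of these, Actb was at 17656 ± 5003 normalized counts in control (n = 3) and 10172 ± 1661 in p65 KO (n = 2).

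**Figure D2:**
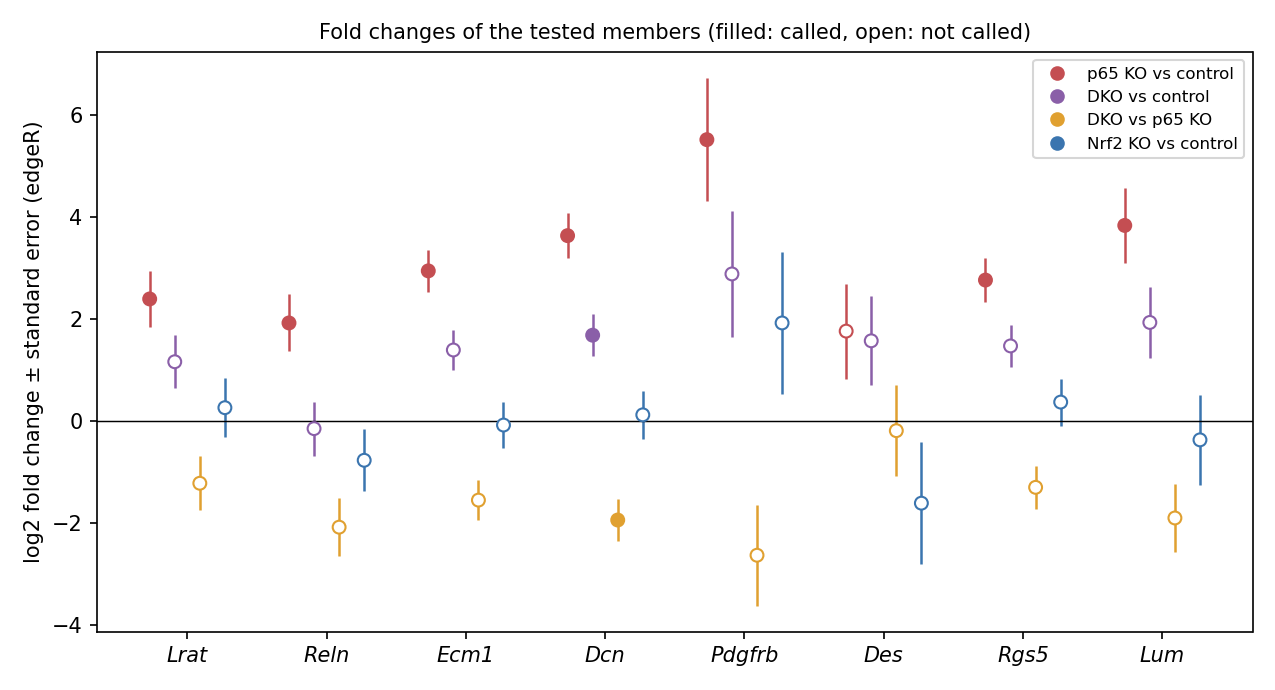
Log2 fold changes of the 8 tested genes from edgeR, for each knockout compared with control and for DKO compared with p65 KO. Bars are standard errors derived from the F value of the test. Filled points were called. The p65 KO points run from 1.76 for Des to 5.51 for Pdgfrb, whose control rests on 3 counts, and those of DKO compared with p65 KO are all below 0.

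To see how the bases upstream of these genes differ, the 250 bases before each start site were taken from RefSeq on GRCm38.p6, an older build than the GRCm39 of the counts. The table held 6 of the 9 genes: Lrat, Reln, Ecm1, Des, Rgs5, and Acta2. Shown are 4 of them that hold a searched motif and that span the range of responses: Ecm1 and Lrat, which were called in p65 KO, Des, which was not, and Acta2, which was not tested. Each is written 5′ to 3′ on the gene's own strand, with matches in capitals.
Ecm1, chr3:95739570-95739819, minus strand: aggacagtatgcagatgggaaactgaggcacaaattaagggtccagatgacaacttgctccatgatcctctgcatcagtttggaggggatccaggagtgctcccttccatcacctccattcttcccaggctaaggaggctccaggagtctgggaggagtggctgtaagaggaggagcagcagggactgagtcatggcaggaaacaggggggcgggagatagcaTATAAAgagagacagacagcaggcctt
Lrat, chr3:82903975-82904224, minus strand: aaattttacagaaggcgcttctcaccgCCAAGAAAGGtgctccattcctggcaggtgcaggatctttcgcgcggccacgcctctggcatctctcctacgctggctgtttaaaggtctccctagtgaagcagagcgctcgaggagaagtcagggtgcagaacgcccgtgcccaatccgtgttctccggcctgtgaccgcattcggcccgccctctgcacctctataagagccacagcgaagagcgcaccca
Des, chr1:75360042-75360291, plus strand: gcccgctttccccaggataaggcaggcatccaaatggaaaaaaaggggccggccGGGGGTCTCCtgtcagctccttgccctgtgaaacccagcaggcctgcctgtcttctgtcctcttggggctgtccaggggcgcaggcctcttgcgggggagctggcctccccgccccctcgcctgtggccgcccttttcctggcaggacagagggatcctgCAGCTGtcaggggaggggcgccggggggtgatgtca
Acta2, chr19:34255374-34255623, minus strand: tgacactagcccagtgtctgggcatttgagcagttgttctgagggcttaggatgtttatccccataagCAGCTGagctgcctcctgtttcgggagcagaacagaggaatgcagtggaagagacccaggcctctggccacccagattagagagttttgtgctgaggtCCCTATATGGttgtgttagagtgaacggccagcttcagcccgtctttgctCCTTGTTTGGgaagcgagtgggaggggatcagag
Ecm1 holds a TATA box, TATAAA, 27 to 22 bases before the start. Des holds the κB motif, at which NF-κB subunits bind, 196 to 187 bases before the start and the E-box CAGCTG 36 to 31 bases before it. Acta2 holds the same E-box at 182 to 177 bases and, at 84 to 75 and at 34 to 25 bases, 2 copies of the CArG box of serum response factor with 1 C or G allowed in its core. Lrat holds such a CArG variant 223 to 214 bases before the start. None of the 6 windows holds the core of the antioxidant response element, TGACNNNGC, at which Nrf2 binds, or the strict CArG box, and Reln and Rgs5 hold none of the 6 motifs searched on both strands. Among all 32851 windows of the table, 7.25% hold the κB motif, 10.2% the antioxidant core, 12.4% TATAAA, 13.0% CAGCTG, 1.47% the strict CArG box, and 7.24% its variant. A match describes the letters only.

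To compare the genotypes as a whole, the calls of the members were set beside those of all genes. In p65 KO compared with control, 7 of 8 tested members were called higher, whereas 5.05% of all genes tested were. Both p65 KO libraries were above all 3 control libraries for 8 of 8, against 26.2% of all genes. The median log2 fold change of the 8 members was 2.85, and that of all genes was 0.00. Dcn, Ecm1, and Rgs5 remained called whichever library was left out.

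In DKO compared with control, 1 of 8 members was called higher, against 1.36% of all genes, and 5 of 8 (Lrat, Ecm1, Dcn, Rgs5, and Lum) did not overlap with control, against 13.2%. At an unadjusted p under 0.05 there were 6, against 22.5% of all genes in either direction. The median log2 fold change was 1.52 against 0.02 for all genes. Within DKO the 3 mice were uneven. DKO 2 was the highest for 7 of the 8 members with more than 3 counts in the group, Des being highest in DKO 1, and the sum of the 9 members was 467, 1258, and 602 normalized counts in DKO 1, 2, and 3.

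DKO was then compared with p65 KO directly. The members were lower in DKO, without overlap for 7 of 8 (all but Des) against 20.1% of all genes, at a median of -1.73 on the log2 scale where all genes had 0.00. One of them, Dcn, was called lower, against 0.968% of all genes, at a log2 fold change of -1.94 (SE 0.412, edgeR adjusted p = 0.0312). This call was lost without p65 KO 1 (edgeR adjusted p = 0.112), p65 KO 2 (0.129), DKO 1 (0.0918), or DKO 3 (0.0694), at log2 fold changes between -2.01 and -1.68. Reln, at -2.08 (SE 0.564, edgeR adjusted p = 0.0658), Ecm1, at -1.55 (SE 0.398, edgeR adjusted p = 0.056), and Rgs5, at -1.30 (SE 0.417, edgeR adjusted p = 0.108), did not pass with all libraries. All 3 passed when DKO 2 was left out, with edgeR adjusted p of 0.00986, 0.0231, and 0.0248. Ecm1 also passed without Nrf2 KO 1 (edgeR adjusted p = 0.0401) or Nrf2 KO 2 (0.0398). Lrat differed by -1.22 (edgeR adjusted p = 0.205), Pdgfrb by -2.63 (0.152), Lum by -1.90 (0.129), and Des by -0.19 (0.926). DKO and p65 KO enter both this comparison and those with control, so these are not independent.

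Nrf2 KO was compared with control in the same way. None of the 8 tested members was called by edgeR, none had an unadjusted p under 0.05 (9.38% of all genes did), and DESeq2 and limma also called 0, while 0.55% of all genes were called in either direction. The median log2 fold change of the members was 0.02. The widest values were those of the genes with the fewest counts, Pdgfrb, at 9 counts against 3, and Des, at 3 against 13. Nrf2 KO 1 was above Nrf2 KO 2 for all 7 members with more than 3 counts in the group, and the sums of the 9 members were 419 and 217 normalized counts.

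Between DKO and Nrf2 KO, edgeR called 0 of 8 members, against 0.433% of all genes in either direction. At an unadjusted p under 0.05 there were 5 (Ecm1, Dcn, Des, Rgs5, and Lum), all higher in DKO, against 14.4% of all genes, and DESeq2 called 2, Dcn and Ecm1, whereas limma called 0. The median log2 fold change was 1.28. The interaction, or how far the step from p65 KO to DKO departed from the step from control to Nrf2 KO, was also called for 0 of 8 members, against 0.455% of all genes. Its median was -1.51, and 4 members (Ecm1, Dcn, Pdgfrb, and Rgs5) had an unadjusted p under 0.05, against 13.8% of all genes, while DESeq2 called 1. For Dcn the interaction was -2.06 (edgeR adjusted p = 0.197), and without DKO 2 it was -2.60 (edgeR adjusted p = 0.0479).

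Levels of different genes were compared per kilobase of the canonical transcript. Ecm1 was the highest in every genotype, at means of 39.9 normalized counts per kb in control, 38.2 in Nrf2 KO, 307 in p65 KO, and 105 for DKO, and Dcn was the second, at 11.2, 12.3, 139, and 36.1. In control the libraries of Ecm1 (33.6 to 49.1 per kb) stood apart from those of Dcn (7.57 to 17.6), whereas Dcn, Reln (5.76 to 15.8), and Rgs5 (7.14 to 10.9) overlapped. Lrat followed at 2.02 to 4.18 per kb and overlapped with Lum (0.449 to 2.66), Lum overlapped with Des (0.941 to 2.09), and Acta2 (0 to 0.792) and Pdgfrb (0 to 0.364) were the lowest and overlapped too. In p65 KO the order was Ecm1, Dcn (132 and 146), Rgs5 (52.6 and 69.4), Reln (30.1 and 39.7), Lum (20.7 and 22.3), Lrat (11.8 and 23.6), Pdgfrb (7.69 and 11.1), Des (3.02 and 6.48), and Acta2 (0 and 1.36). Only the neighbours Lum and Lrat overlapped there. Lum thus stood below Lrat in the control order and above it by mean in p65 KO, a pair whose libraries overlapped in both.

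To set quiescence against activation genes, their summed normalized counts were first compared with control, which depends on how libraries are scaled. The sum of Lrat, Reln, and Ecm1 was 5.71-fold that of control in p65 KO and 1.80-fold in DKO. For Dcn, Pdgfrb, Des, and Rgs5 the ratios were 10.6 and 3.12, and for Acta2 and Lum, which is Lum almost alone, 11.9 and 3.07. The counts were also taken as shares within the same library, which do not depend on that scaling. Activation genes made up 1.74% to 2.27% of the quiescence and activation counts in control, 0.641% and 1.95% in Nrf2 KO, 3.79% and 4.20% in p65 KO, and 2.58% to 4.26% in DKO. All 5 libraries of p65 KO and DKO were above all control libraries, but the control shares rest on 3 to 7 counts of Acta2 and Lum per library.

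**Figure D3:**
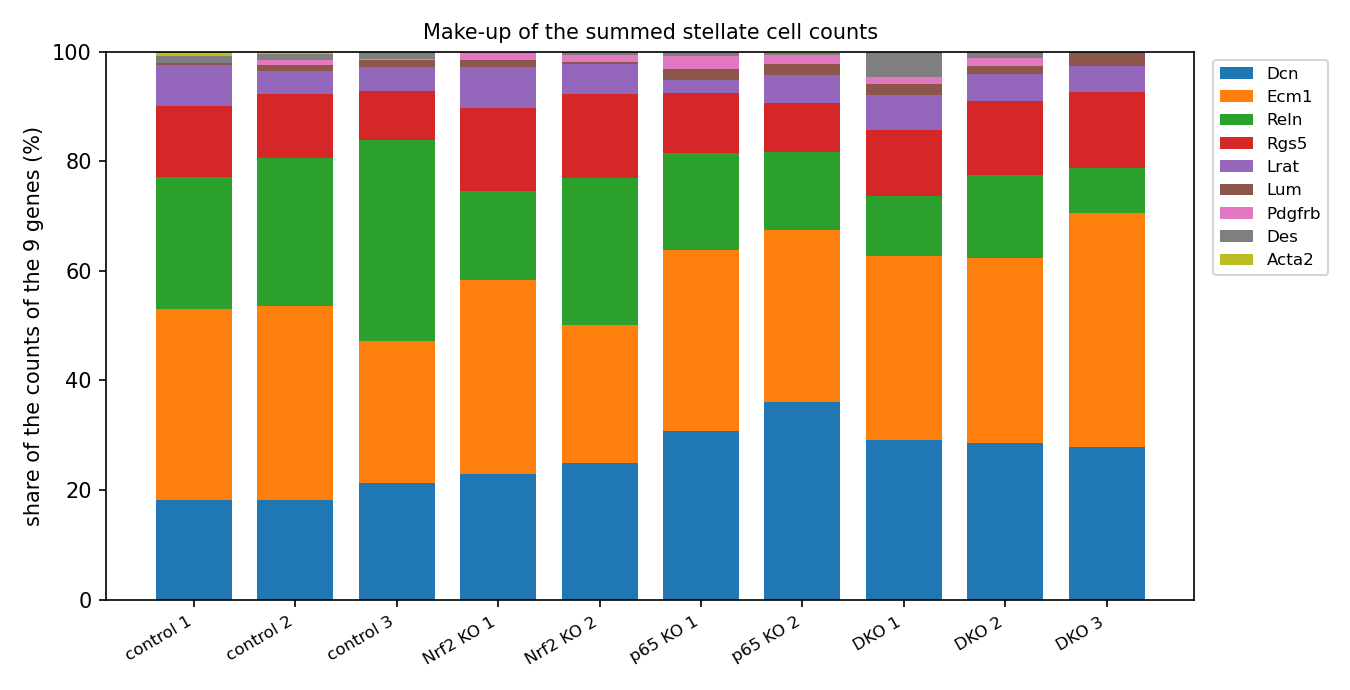
Share of each gene in the summed counts of the 9 genes, in percent, for each library. The share of Dcn lies between 18.1% and 21.3% in control and between 27.9% and 36.1% in the p65 KO and DKO libraries, and that of Reln is 24% to 36.7% in control and at most 17.7% in p65 KO and DKO.

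The best counted shift in make-up was between Dcn and Reln. Dcn took 18.1%, 18.2%, and 21.3% of the members' counts in control, 22.9% and 24.9% in Nrf2 KO, 30.8% and 36.1% in p65 KO, and 29.1%, 28.5%, and 27.9% in DKO. No library of another genotype was as low as control. In single libraries the 95% Wilson interval, for counting error only, was 18.1% to 24.9% in control 3, 29.1% to 32.6% in p65 KO 1, and 24.3% to 31.9% in DKO 3. Reln took 24%, 27.1%, and 36.7% in control, 16.3% and 26.8% in Nrf2 KO, 17.7% and 14.3% in p65 KO, and 11%, 15.1%, and 8.17% in DKO. The 5 p65 KO and DKO libraries were all below the 3 control libraries, with Nrf2 KO spread over both ranges. For Reln the interval was 19.2% to 29.6% in control 1 and 16.3% to 19.2% in p65 KO 1. Ecm1 took 25.9% to 35.3% in control, 25.3% and 35.4% in Nrf2 KO, 31.3% and 33% in p65 KO, and 33.6% to 42.6% in DKO, and overlapped control in each. Rgs5 took 8.89% to 13.0% in control, 15.1% and 15.2% in Nrf2 KO, 8.82% and 10.9% in p65 KO, and 11.9% to 13.9% in DKO, above control in Nrf2 KO and overlapping it in p65 KO and DKO. These shares were described and not tested.

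Other genes of the pathways around the 9 members were read from lists chosen by function. Of 22 further stellate cell genes, 20 were tested, and 13 were called higher in p65 KO and none lower, with a median log2 fold change of 2.80. Prelp, a matrix proteoglycan, was at 26.1 ± 11.4 normalized counts in control and 271 ± 16.6 in p65 KO (log2 fold change 3.36, SE 0.454, edgeR adjusted p = 0.00204). Colec11, a secreted collectin, was at 20.1 ± 7.89 and 181 ± 10.8 (edgeR adjusted p = 0.00391). Ednrb, an endothelin receptor, was at 0.934 to 2.95 in control and at 67.0 and 63.3 in p65 KO (edgeR adjusted p = 0.00478). In DKO Ednrb was called higher than in control, at 9.47, 42.6, and 12.6 normalized counts (edgeR adjusted p = 0.0359), and Prelp was called lower in DKO than in p65 KO (log2 fold change -1.74, edgeR adjusted p = 0.0471). Steap4 was the most abundant of the list, at a mean of 2376 normalized counts over the 10 libraries.

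Among 28 further genes of activation and matrix, 22 were tested and 11 were called higher in p65 KO, at a median log2 fold change of 2.56 for the list, and in DKO none was called by edgeR. The other 11 were not called in p65 KO. Among them were the 2 most abundant of the list, Fn1 (log2 fold change 0.34, edgeR adjusted p = 0.125) and Tpm1 (log2 fold change -0.24, edgeR adjusted p = 0.199). Bgn, biglycan, rose from 67.0 ± 30.9 normalized counts in control to 588 ± 152 in p65 KO (log2 fold change 3.12, SE 0.401, edgeR adjusted p = 0.00174). Sparc, a matricellular glycoprotein, rose from 122 ± 24.5 to 526 ± 92.6 (edgeR adjusted p = 0.00232). Of the fibrillar collagen genes in the list, Col1a1, Col1a2, and Col5a1 rose and Col3a1, at a log2 fold change of 3.06, did not pass (edgeR adjusted p = 0.0538). Col1a2 was at 4.42, 2.95, and 10.3 in control and at 69.1 and 87.9 in p65 KO (edgeR adjusted p = 0.0074). Col1a1 had no count in control and was at 43.7 and 33.1 in p65 KO, at least 38.3-fold higher against a floor of 3 counts over the control group (edgeR adjusted p = 0.00743). Both were low in DKO, at 12.6, 20.2, and 4.58 for Col1a2 and 4.21, 4.49, and 0 for Col1a1. Bgn, Sparc, and Col1a2 were called lower in DKO than in p65 KO (edgeR adjusted p = 0.0352, 0.0457, and 0.0471).

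Genes that separate stellate cells from other mesenchymal cells were partly absent. Of 12 genes of smooth muscle and pericytes, 4 (Actg2, Cnn1, Cspg4, and Lmod1) were at 0 in every library, 8 were tested, and 1 was called higher in p65 KO. This was Abcc9, a subunit of potassium channels, at 10.2 ± 3.27 normalized counts in control and 123 ± 6.18 in p65 KO (log2 fold change 3.57, edgeR adjusted p = 0.00212), and it was lower in DKO than in p65 KO (log2 fold change -2.37, edgeR adjusted p = 0.0233). The median log2 fold change of the 8 tested genes of smooth muscle and pericytes was 1.97 in p65 KO. The list, Abcc9 included, summed to 29.5 to 43.9 normalized counts in control and to 238 and 215 in p65 KO. Of 14 genes of portal fibroblasts and the mesothelium, 7 (Msln, Mfap4, Dpt, Clec3b, Upk3b, Upk1b, and Wt1) were at 0 throughout. Of the 4 tested none was called in p65 KO or DKO. At their median these 4 stood 1.70 above control on the log2 scale in p65 KO and 0.86 in DKO. Entpd2 held 1009 counts over all libraries and differed by -0.01 in p65 KO. The rest held no more than 26 each, among them Cd34, at 2.52. With so few counts, the lack of a call does not show that they stayed level. Genes of this list that were neither at 0 nor tested were under the minimum of 10 counts.

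Around Lrat, among genes of retinoid handling, Aldh1a1, an enzyme that makes retinoic acid, fell in DKO (log2 fold change -1.07, edgeR adjusted p = 0.0301). Around Pdgfrb, 1 of 5 ligand and receptor genes was called in p65 KO and in DKO. The ligand gene Pdgfc fell from 154 ± 40.0 normalized counts in control to 58.6 ± 6.70 in p65 KO (log2 fold change -1.39, edgeR adjusted p = 0.0379) and to 38.5 ± 9.20 in DKO (log2 fold change -1.99, edgeR adjusted p = 0.0116). Among relatives of Rgs5, Rgs16 rose in p65 KO (log2 fold change 1.92, edgeR adjusted p = 0.0138) and Rgs3 fell in DKO (log2 fold change -3.05, edgeR adjusted p = 0.0329). Besides Bgn and Prelp no further relative of Dcn and Lum was called, and 3 of 9 were at 0 in every library. None of the 3 tested actin genes was called by edgeR in p65 KO or DKO. Vim, the intermediate filament partner of Des, rose in p65 KO (log2 fold change 2.16, edgeR adjusted p = 0.0198).

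**Figure D4:**
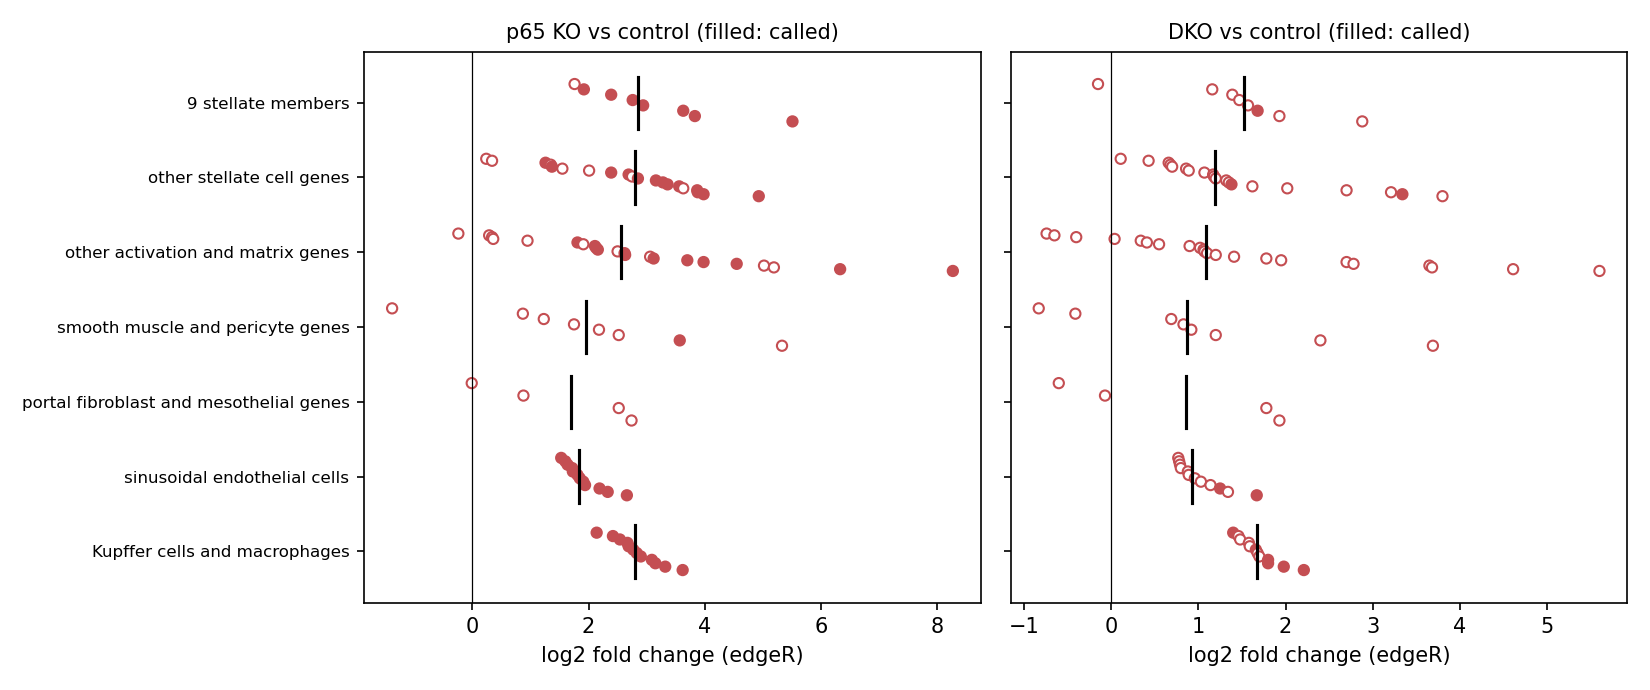
Log2 fold changes from edgeR of the tested genes of each list in p65 KO (left) and in DKO (right) compared with control. Points are genes, filled where called, and the black lines are the medians of the lists, which for the stellate members are 2.85 and 1.52.

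Markers of other non-parenchymal cells moved with the stellate cell genes. All 12 genes of Kupffer cells and macrophages and all 12 of sinusoidal endothelial cells were called higher in p65 KO, and 6 and 2 of them in DKO. The Kupffer genes summed to 428 to 1068 normalized counts in control, 308 and 916 in Nrf2 KO, 4814 and 6491 in p65 KO, and 1833 to 3195 in DKO, a ratio of 7.33 in p65 KO and 3.14 in DKO to control. Endothelial genes summed to 1030 to 2186, 1330 and 2578, 5450 and 7489, and 2761 to 4223, ratios of 3.75 and 2.00. For the 9 stellate members the ratios were 7.34 and 2.24, and the hepatocyte genes stood at 0.999 and 1.06. In DKO, mouse 2 was the highest for 7 of 8 stellate members and 10 of 12 endothelial genes, and mouse 1 for 12 of 12 Kupffer genes. Control 3 was the highest for 7 of 7 stellate members and 10 of 12 endothelial genes, and control 2 for 10 of 12 Kupffer genes. In the other genotypes all 3 lists peaked in the same mouse. Nrf2 KO 1 was the highest for 7 of 7 stellate members, 12 of 12 Kupffer genes, and 12 of 12 endothelial genes. For p65 KO 1 these numbers were 6 of 9, 12 of 12, and 10 of 12. The part that the carry-over of non-parenchymal cells has in the stellate values was not tested.

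**Figure D5:**
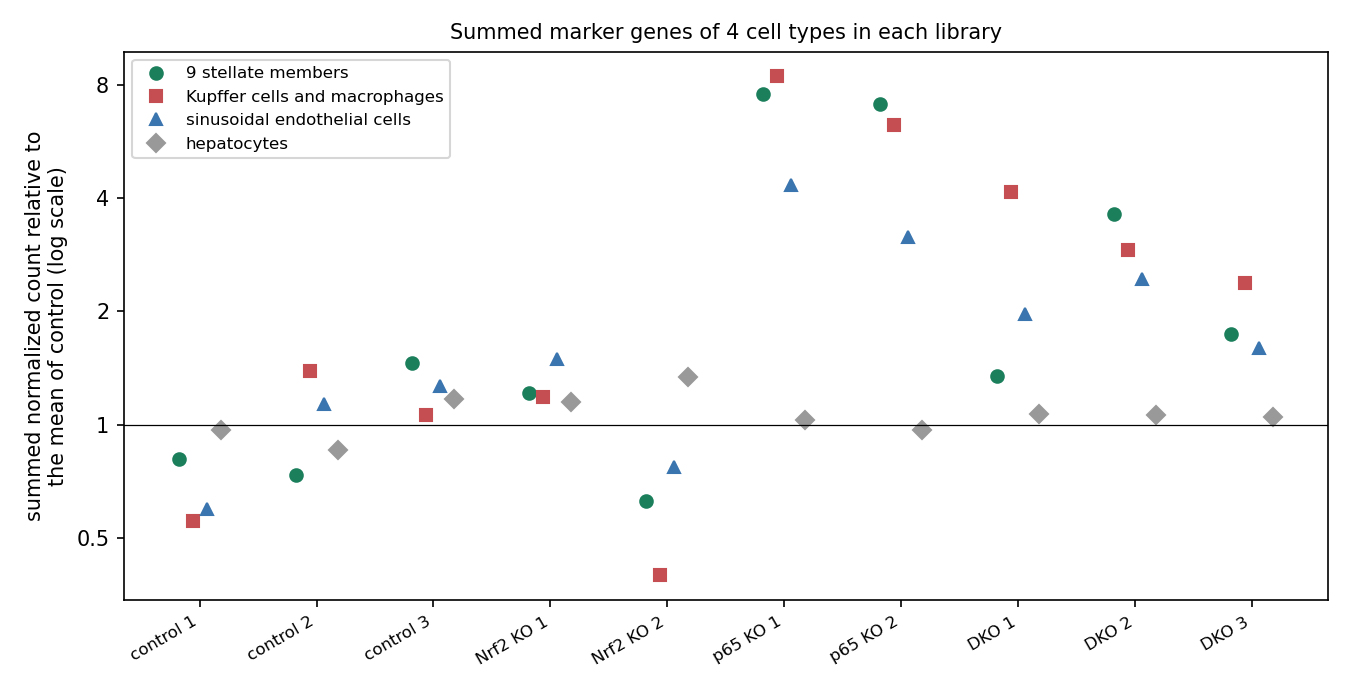
Summed normalized counts of the 9 stellate members and of markers of Kupffer cells, sinusoidal endothelial cells, and hepatocytes in each library, relative to the control mean and on a log axis. The stellate sum is 7.34-fold the control mean on average in p65 KO and 2.24-fold in DKO, while hepatocyte markers stay near 1.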

How the data were processed

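The authors isolated total RNA of freshly isolated hepatocytes from 10 mice, made stranded mRNA libraries, and quantified single-end reads with Salmon 1.10.3 against GRCm39. They deposited estimated counts per gene in a table named as normalized, but its columns are whole numbers with totals between 33707165 and 49897382 and size factors between 0.8789 and 1.259, so they were read as estimated counts that had not been normalized. The step from transcripts to genes is not given in the sources used here. Each column was assigned by its name, and 0 were left over.

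Genes with at least 10 counts over the 10 libraries entered edgeR 4.0.16 under R 4.3.3 (TMM normalization, quasi-likelihood F test, all 4 genotypes in 1 fit), and p-values were adjusted over 13641 genes within each comparison by the Benjamini-Hochberg method. This test gives no standard error. The SE printed with a log2 fold change is its size divided by the square root of the F value. The test had been run on simulated counts in which all genes had the same spread, which does not show how it performs for these members. Names, positions, and canonical transcript lengths came from GENCODE M39, which holds 21926 of the 21939 identifiers. All 9 members are named with their values. Of every other list, the text gives the counts of calls and names at most the 4 called genes with the lowest adjusted p per comparison with control and the 2 most abundant genes. Of the 22 further stellate cell genes, Tmem56 had no row under that name. The result of 1 listed gene is not reported here. The members and lists were chosen with earlier results of these data known. The p-values measure the spread between libraries, each taken as 1 mouse from the numbers of mice in the paper. Intervals for ratios and shares cover counting error only.

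Alternatives were DESeq2 1.42.0, limma 3.58.1 on log2 CPM, other normalizations and filters, fits of only the genotypes compared, the replicate number as a block, and leaving out each library. Plots were made by matplotlib 3.10.9 (Python 3.11.15).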

Additional observations from a re-analysis of the deposited data

How the results depend on the processing

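The count of 7 members called in p65 KO compared with control stayed between 5 and 7 under the other tests, normalizations, filters, and designs, and between 4 and 7 when single libraries were left out. Counts that were small to begin with moved more. In DKO compared with control, where 1 member was called, DESeq2 and the fit without a filter each called 3, and the fit of only these genotypes called 0, with a range of 0 to 3 over left-out libraries. In DKO compared with p65 KO, where 1 was called, DESeq2 called 4, scaling to equal totals 4, the fit without a filter 3, limma 2, and the fit of only these genotypes 0, and left-out libraries gave 0 to 4. DESeq2 called 2 members in DKO compared with Nrf2 KO and 1 for the interaction, where edgeR called 0, and left-out libraries gave 0 and 0 to 1. The cause of these moves was not tested. Scaling to equal totals shifted the median of all genes by 0.18 in p65 KO, -0.09 in DKO, and -0.27 in DKO compared with p65 KO.

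The replicate numbers were not taken to pair the mice. Deviations from the genotype means were correlated for the 13 pairs of libraries with the same number and different genotypes. The correlations lay between -0.232 and 0.113, 1 of them over 0.1. In a genotype with 2 libraries the 2 deviations mirror each other, so these values cannot decide whether the numbers pair the mice. With the replicate number as a block, 5 members were called in p65 KO (Lrat and Reln were lost), 0 in DKO, and 0 in DKO compared with p65 KO.

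No direction of a member turned under another test, normalization, filter, or design. With libraries left out, directions turned for members that were not called. In Nrf2 KO the log2 fold changes then ran from -0.57 to 0.80 for Lrat, -0.95 to 0.48 for Ecm1, -0.34 to 0.61 for Dcn, -0.16 to 0.77 for Rgs5, and -2.0 to 0.44 for Lum. Others were Reln in DKO compared with control (-1.09 to 0.51) and with Nrf2 KO (-0.32 to 0.94), Pdgfrb in DKO compared with Nrf2 KO (-0.58 to 1.69), Des in DKO compared with p65 KO (-0.80 to 0.46), and Lum in the interaction (-2.34 to 0.10). Leaving out a library of Nrf2 KO or p65 KO leaves 1 mouse, which is assumed to vary like the others. With a filter on a mean of 10 counts, 7 members were tested. Depth limits Acta2, Pdgfrb, Des, and Lum, which had 7, 137, 82, and 163 counts in all libraries together.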

Other observations

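Genes of other immune, biliary, and blood cells were mostly low, and several sums rest on 1 or 2 genes. Neutrophil genes summed to 2.80 to 6.88 normalized counts in control, 6.92 and 8.08 in Nrf2 KO, 11.3 and 53.8 in p65 KO, and 8.01 to 35.8 in DKO. Of the 4 tested, Csf3r, the receptor of granulocyte colony-stimulating factor, was called higher in p65 KO (log2 fold change 3.38, edgeR adjusted p = 0.0341). B cell genes were under 10 normalized counts in every library, with none called by edgeR among the 2 tested. Of 8 genes of T and NK cells, Cd4, the T helper co-receptor that is also found on some macrophages, held 502 counts over all libraries and the others between 7 and 13 each. Cd4 was called higher in DKO than in control (log2 fold change 1.96, edgeR adjusted p = 0.0229), and no other gene of that list was called by edgeR in p65 KO or DKO. Among 7 cholangiocyte genes, Sox9 and Spp1 held 1674 and 1308 counts and the other 5 between 2 and 19, and of the 3 tested none was called in p65 KO or DKO. Erythroid genes, most of it Alas2, summed to 3362 to 4674 in control, 3649 and 3782 in Nrf2 KO, 3133 and 3516 in p65 KO, and 4730 to 5605 in DKO, and none of the 5 tested was called by edgeR in p65 KO or DKO. The sum hides the globin genes. The median log2 fold change of the list was -0.80 in p65 KO and 2.06 in DKO. Hbb-bs was at 24.3, 71.8, and 71.9 normalized counts in control and 452, 162, and 91.5 in DKO (edgeR adjusted p = 0.0732).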
